A study of Mus musculus with 11 samples.

Results

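The 5 libraries described here compare the inner and outer cell layers of the pubertal mouse mammary duct, 3 from basal cells and 2 from luminal cells, out of 11 libraries in all. They were chosen by their labels (tissue ducts, cell population basal or luminal epithelium), and no measured value was used. The other 6 libraries are 3 of basal and 3 of luminal cells from terminal end buds (TEBs), the club-shaped growing tips of the ducts, and serve here to show where the ducts differ and, since all libraries share 1 model, also enter the estimate of the spread behind every duct call. The duct libraries alone gave 2728 calls against 3878. All mice were C57BL/6 females aged 5 weeks that carried an E-cadherin-GFP allele in every group, and none was treated. Ducts and TEBs were dissected under fluorescence, and lineage-negative CD29+ CD24+ cells were sorted as luminal where E-cadherin-GFP was high and as basal where it was low. Each replicate pooled at least 2 mice, and a luminal duct sample was discarded in the study for low cell numbers, so that luminal duct cells have replicates 1 and 3 only. The sort used the product of Cdh1, so a difference in that gene between layers follows from the gate.

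A mammary duct is a tube of 2 layers. Luminal cells line the lumen, are held together at their tips by tight junctions, and include hormone-sensing cells as well as the progenitors of the milk-making alveoli. Basal cells, most of them myoepithelial, wrap around them, contract in response to oxytocin, and make and hold the basement membrane that separates the epithelium from the stroma.

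The 3 basal duct libraries held 37191380 to 49221436 counts and the luminal duct libraries 42960489 (replicate 1) and 29522747 (replicate 3). Levels are given as CPM, a gene's counts scaled to a common library total, after scaling for library composition, given in the order basal replicates 1, 2 and 3 and luminal replicates 1 and 3. Mitochondrial genes took 6.66% to 10.9% of counts in 4 of the duct libraries and 28.5% in luminal duct replicate 3. The 10 fibroblast markers summed to 444, 883 and 514 CPM in basal cells and to 9.83 and 277 CPM in luminal cells, the 10 endothelial markers to 34.2, 360 and 44.4 CPM and to 40.7 and 71.5 CPM, the immune markers to 35.6, 88.0 and 26.3 CPM and to 12.7 and 84.1 CPM, and the adipocyte markers to 10.7, 213 and 27.2 CPM and to 1.57 and 88.0 CPM. Basal duct replicate 2 and luminal duct replicate 3 thus held more of these markers than the other libraries of their group. Over the 7975 genes whose mean log2 CPM was 4 or more, 14.9% differed more than 2-fold between the luminal libraries, 2.29% to 6.43% between basal libraries, and 27.3% to 32.8% between a basal and a luminal library.

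Markers of the layers separated the libraries as labelled. All 10 basal markers were higher in basal cells and all 10 luminal markers higher in luminal cells, while over all 17370 genes tested 12.6% were called higher in basal and 9.71% higher in luminal cells. In bulk RNA, fewer cells of a type and less RNA per cell cannot be told apart. Acta2, the smooth muscle actin of myoepithelial cells, was at 6457, 7032 and 5994 CPM in basal cells and at 34.6 and 103 CPM in luminal cells. Trp63, the transcription factor p63 that marks basal epithelium, was at 461, 478 and 466 CPM against 3.44 and 0.206 CPM. Every basal library lay far above both luminal libraries for these genes. Among luminal markers, Krt18, a keratin of simple epithelium, was at 59.2, 102 and 70.6 CPM in basal cells and at 3960 and 3518 CPM in luminal cells. Prom1, a membrane protein of luminal cells, was at 0.180, 0 and 2.87 CPM against 193 and 160 CPM. Cdh1, E-cadherin itself and also among the luminal markers, was at 112, 61.4 and 103 CPM against 248 and 268 CPM. Its log2 fold change of -1.49 follows from the gate. The other proteins of the gate, CD24 and CD29, are encoded by Cd24a and Itgb1, whose log2 fold changes were -2.96 and 1.77. Both layers were sorted as positive for these proteins, and only E-cadherin-GFP set the layers apart. The part of the gate in these differences was not tested. The median basal marker stood in luminal replicates 1 and 3 at 0.640% and 1.18% of its basal level, and the median luminal marker in the basal libraries at 2.00% to 3.13% of its luminal level.

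Markers of the luminal subtypes differed in how cleanly they followed the layer. Over all genes tested, 9.71% were called higher in luminal and 12.6% higher in basal cells. Of 10 mature luminal markers, 9 were higher in luminal cells, with Areg, an EGF receptor ligand made by hormone-sensing cells, at 5.29, 0.263 and 3.80 CPM in basal cells and at 2385 and 1002 CPM in luminal cells. Prlr, the prolactin receptor, was at 3.97, 11.1 and 17.6 CPM against 2750 and 1674 CPM. The tenth, Tnfsf11 (RANKL), a progesterone-induced paracrine signal, was at 4.48 CPM in luminal replicate 1 and had no count in replicate 3, and was not called (log2 fold change -7.63, SE 3.16, adjusted p = 0.108). Of 10 luminal progenitor markers, 5 were higher in luminal cells, among them Elf5, the transcription factor of the alveolar lineage, at 2.43, 1.05 and 0.0257 CPM against 123 and 84.0 CPM. Itga2, an integrin that binds collagen, went the other way at 79.4, 36.1 and 77.9 CPM in basal cells against 9.92 and 13.1 CPM (log2 fold change 2.49, SE 0.43, adjusted p = 0.00133). Lcn2, an iron-sequestering defence protein, was also called higher in basal cells (log2 fold change 0.92, SE 0.30, adjusted p = 0.0447), but its adjusted p was 0.0549 to 0.177 when any 1 duct library was left out, and 0.0548 to 0.0616 without basal TEB replicate 2 or 3 or luminal TEB replicate 1. Csn3 (kappa-casein) reached 196 CPM in basal replicate 3 alone, against 16.6 and 21.0 CPM in the other basal libraries. It lay higher in luminal cells (log2 fold change -2.25) but was not called (adjusted p = 0.0642), and was called under 6 of 27 alternatives. By library, 8 of the 10 progenitor markers were higher in both luminal libraries than in any basal one, and 2 were the other way round. Over all genes tested these shares were 21.2% and 24.8%.

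**Figure D1:**
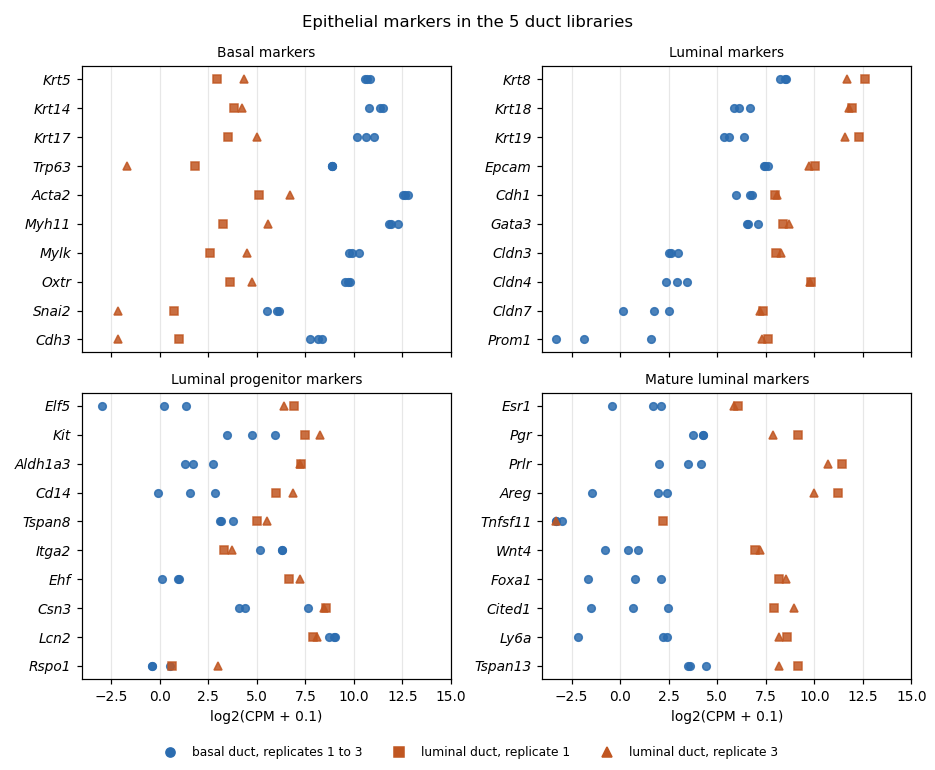
Levels of the 40 epithelial markers, as log2(CPM + 0.1), in each of the 5 duct libraries (circles, 3 basal replicates; square and triangle, luminal replicates 1 and 3). Basal and luminal markers do not overlap between layers, while Itga2 and Lcn2 are higher in basal cells and Tnfsf11, Csn3, Tspan8 and Rspo1 were not called.

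Across the 17370 genes tested, 3878 (22.3%) differed between the layers, 2191 higher in basal and 1687 higher in luminal cells, at an FDR of 0.05 (Benjamini-Hochberg) by the quasi-likelihood test of edgeR, which gave every adjusted p printed here. The larger differences were on the basal side. The median called gene was 2.65 log2 units higher in basal cells or 1.80 log2 units higher in luminal cells, and a difference of 5 log2 units or more was found for 662 genes higher in basal and 339 higher in luminal cells. All but 4 of the called basal genes (2187 of 2191) had no overlap between the libraries of the 2 layers, as did 1673 of the 1687 luminal genes, and over all genes tested 24.8% did not overlap with basal higher and 21.2% with luminal higher. The common biological coefficient of variation was 0.704.

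Well expressed genes (mean log2 CPM of at least 4 over the duct libraries) were ranked by their difference. Only called genes without overlap between the layers and without a predicted name were ranked. The 12 with the largest difference towards basal cells were Moxd1, Frem2, Lama1, Reln, Vwa1, Rcn3, Scn7a, Igfbp2, Sema6d, Matn2, Col18a1 and Fst, with log2 fold changes from 9.95 down to 8.36. Moxd1, a monooxygenase-like protein on chromosome 10 of mm10 (24223517 to 24302783), was at 481, 409 and 470 CPM in basal cells and at 0.637 and 0.206 CPM in luminal cells (log2 fold change 9.95, SE 0.55, adjusted p = 7.46e-07). Reln, a large secreted protein best known for positioning neurons, was at 608, 372 and 663 CPM against 0.842 and 0.617 CPM. Scn7a, a sodium channel subunit, was at 325, 287 and 239 CPM against 0.819 and 0.123 CPM. Fst, the activin antagonist follistatin, was at 294, 455 and 267 CPM against 1.52 and 0.411 CPM. In each of these the luminal libraries held at most a few CPM.

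Towards luminal cells, the 12 largest differences among genes ranked in the same way were in Dmbt1, Areg, Gpx3, Krt7, Lgals3, Slc5a5, Prlr, Tlcd4, Wfdc2, Stc2, Tmprss2 and Cldn4, from -9.81 to -6.84. Dmbt1, a mucosal scavenger receptor on chromosome 7 of mm10 (131032057 to 131121628), was at 0.818, 0.105 and 5.82 CPM in basal cells and at 2165 and 1859 CPM in luminal cells (SE 1.22, adjusted p = 0.000118). Slc5a5, the sodium/iodide symporter, was at 8.4996, 2.47 and 2.80 CPM against 1083 and 964 CPM. Lgals3, a galectin, was at 2.39, 2.63 and 1.49 CPM against 480 and 524 CPM. That both luminal libraries lay above the basal ones was a condition of the ranking, but the luminal libraries did not always lie close together. Gpx3, a secreted glutathione peroxidase, was at 8278 CPM in luminal replicate 1 and 966 CPM in replicate 3, against 7.08 to 23.2 CPM in basal cells. Similar gaps were seen, in genes chosen after their values were seen, for Glul, glutamine synthetase, at 7450 and 1325 CPM and for Tgm2, a transglutaminase, at 11196 and 2876 CPM.

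**Figure D2:**
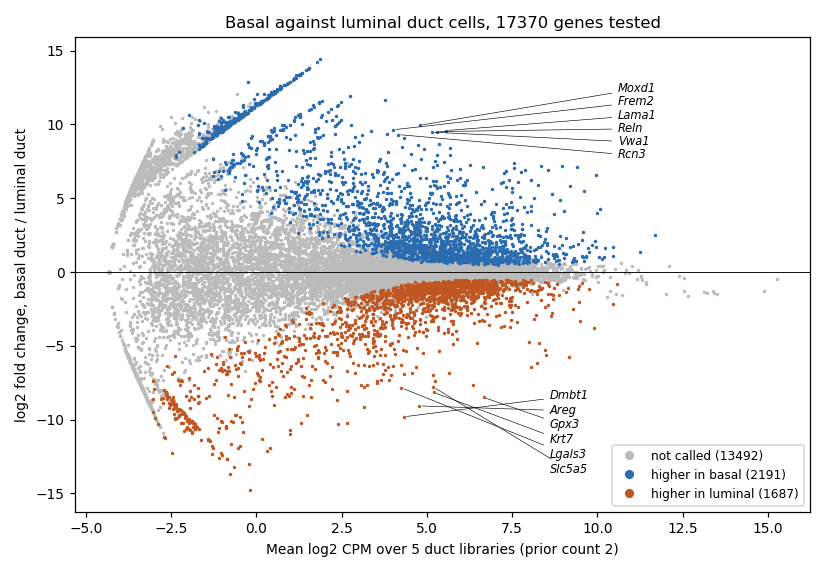
Log2 fold change of basal over luminal duct cells (y axis) against the mean log2 CPM over the 5 duct libraries (x axis), 1 point for each of 17370 genes. Genes called higher in basal (2191) spread further from 0 than those higher in luminal (1687), and the diagonal bands at low levels are genes with no count, or few counts, in one layer.

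Most listed genes of the contractile apparatus were higher in basal cells (78.1%, against 12.6% of all genes tested, with 0% against 9.71% higher in luminal cells). Of 32 genes tested, 25 were higher in basal cells and 0 in luminal cells by edgeR, where 0 members towards luminal cells had an unadjusted p under 0.05 and DESeq2 and limma voom also called 0, with a median log2 fold change of 2.93 against 0.08 over all genes tested. The isoforms of smooth muscle differed most. Actg2, smooth muscle gamma-actin, was at 708, 637 and 419 CPM in basal cells and at 2.48 and 5.51 CPM in luminal cells (log2 fold change 7.22, SE 0.54, adjusted p = 4.15e-06). Myh11, smooth muscle myosin heavy chain, was at 3843, 4934 and 3614 CPM against 9.45 and 47.5 CPM. Kcnmb1, the smooth muscle subunit of a calcium-gated potassium channel, was at 60.7, 36.8 and 60.3 CPM against 0.683 and 0 CPM. All 3 basal libraries were above both luminal libraries in each case. Oxtr, the oxytocin receptor through which milk ejection is triggered, was at 832, 757 and 893 CPM against 12.4 and 26.9 CPM (log2 fold change 5.40, SE 0.43, adjusted p = 5.62e-06). The 2 most highly expressed members not called were Rhoa and Rock2. Rock2, a kinase acting on myosin, was at 170, 163 and 133 CPM against 172 and 137 CPM, and Rhoa, the GTPase above it, at 262, 255 and 225 CPM against 398 and 228 CPM, and neither was called (log2 fold changes 0.00 and -0.34). Actg1, cytoplasmic gamma-actin, was at 429 CPM per kb of exon in basal and 356 in luminal cells (adjusted p = 0.524), so that per length its basal level was close to the 447 CPM per kb of Actg2. Reads of near-identical actin genes can be shared between them, so the split among actins is uncertain. Myh14, a myosin heavy chain outside the list but paired with Myh11, was higher in luminal cells. Its mean was 63.9 CPM in basal and 322 CPM in luminal cells (log2 fold change -2.33, SE 0.28, adjusted p = 0.000103).

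Smooth muscle genes are known targets of serum response factor (SRF), which binds a CArG box, and promoters of the contractile genes were searched for a perfect match because these genes were higher together. RefSeq promoters (GRCm38.p6) of 27 of the 32 genes were matched, and the 250 bases before the start were searched on both strands. Of them 3, Myl6, Myl9 and Srf, held a match, that is 3 of 34 promoters (8.82%), against 1.24% of the 16102 promoters of all genes tested, 2.17% of those of genes higher in basal and 0.984% of those higher in luminal cells. In the other lists searched, 3 of 39 promoters of tight junction and apical polarity genes held a match (7.69%), all 3 of 1 gene. For basement membrane genes it was 1 of 26 (3.85%) and for keratins 0 of 12. Each of the 3 contractile genes with a match is printed here over 30 bases on the strand of the gene, with the box in capitals.
Myl9, chr2:156775293-156775322, plus strand: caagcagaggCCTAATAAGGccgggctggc
Srf, chr17:46556215-46556244, minus strand: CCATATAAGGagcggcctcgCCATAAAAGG
Myl6, chr10:128493040-128493069, minus strand: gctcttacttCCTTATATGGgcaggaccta
The Srf window runs from 82 to 53 bases before the start and holds 2 boxes, the Myl9 window from 171 to 142 and the Myl6 window from 60 to 31. Myl9, a myosin light chain of smooth muscle, was at 925, 1215 and 961 CPM in basal cells against 5.10 and 35.3 CPM (log2 fold change 5.69, SE 0.71). Srf was at 254, 237 and 220 CPM against 108 and 111 CPM (log2 fold change 1.11, SE 0.21, adjusted p = 0.00196), and Myl6, a light chain of many cell types, at 334, 375 and 282 CPM against 128 and 163 CPM (log2 fold change 1.18, SE 0.20). The CArG-bearing genes thus ranged from a modest to a large difference between layers, and a match is a description of these letters only.

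The basement membrane list was also largely basal. Of 30 genes, 24 were higher in basal (80%) and 2 in luminal cells (6.67%), with a median log2 fold change of 4.69. The shares over all genes tested were 12.6% and 9.71%. Lama1, a laminin alpha chain, was at 734, 398 and 906 CPM in basal cells and at 0.797 and 0.987 CPM in luminal cells (log2 fold change 9.59, SE 0.61, adjusted p = 1.59e-06). Fbln1, a matrix protein of basement membranes and elastic fibers, was at 95.4, 46.7 and 158 CPM against 0.319 and 0.0822 CPM. Col18a1, a basement membrane collagen, was at 848, 426 and 1257 CPM against 0.0910 and 5.22 CPM. Basal replicate 2 was the lowest basal library for all 3 genes. Nid2, a nidogen that links laminin to collagen, had no count in either luminal library and was at 7.60, 10.3 and 6.39 CPM in basal cells, at least 184-fold higher against a limit of 3 counts over the luminal libraries. Lama5, by contrast, was higher in luminal cells, at 645, 389 and 525 CPM against 1412 and 888 CPM (log2 fold change -1.15, SE 0.30, adjusted p = 0.0174), as was Npnt, an integrin ligand, at 1.32, 1.00 and 7.52 CPM against 23.3 and 20.2 CPM (adjusted p = 0.0300). These calls rested on single libraries, since the adjusted p of Lama5 was 0.0575 without basal replicate 2 and 0.143 without luminal replicate 1, and that of Npnt was 0.0665 to 0.0920 without basal replicate 1 or 2 or either luminal library. Genes of matrix adhesion followed with smaller differences, 22 of 31 higher in basal (71%) and 1 in luminal cells (3.23%) and a median of 1.32. Itga9, an integrin alpha chain, was at 119, 115 and 88.0 CPM against 5.01 and 0.0411 CPM, and Dag1, dystroglycan, at 1025, 457 and 1149 CPM against 126 and 98.5 CPM. Itga1 had 1 count in the luminal libraries together and 4838 in the basal ones, a ratio of 2598 with a counting interval of 466 to 102607. The hemidesmosome linker Plec was at 486, 313 and 501 CPM against 284 and 304 CPM and was not called (adjusted p = 0.0906).

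Tight junction and apical polarity genes gave the mirror image, with 21 of 34 higher in luminal (61.8%) and 1 in basal cells (2.94%) and a median of -2.94. The shares over all genes tested were 9.71% and 12.6%. Cldn4, a claudin, was at 4.99, 7.499 and 10.65 CPM in basal cells and at 900 and 865 CPM in luminal cells (log2 fold change -6.84, SE 0.31, adjusted p = 3.29e-07). Cgn, cingulin of the tight junction plaque, was at 0.0200, 1.00 and 1.05 CPM against 168 and 166 CPM, Tjp3 (a zonula occludens protein) at 2.85, 0.368 and 1.56 CPM against 81.8 and 88.5 CPM, and Crb3, a determinant of the apical surface, at 0.0599, 1.55 and 1.10 CPM against 46.2 and 53.7 CPM. The luminal libraries were close to each other in all 4. Of the 12 members not called, those with the highest level were Tjp1 and F11r. Tjp1 (its relative in many junctions) was at 141, 160 and 169 CPM against 166 and 158 CPM (log2 fold change -0.05, SE 0.17), and F11r, the adhesion molecule JAM-A, at 145, 171 and 150 CPM against 164 and 192 CPM. Pard3, a polarity scaffold, was the only member higher in basal cells, at 147, 113 and 154 CPM against 52.6 and 38.9 CPM (log2 fold change 1.59, SE 0.21, adjusted p = 0.000175).

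Cadherins and desmosome genes were divided, 11 of 27 higher in basal (40.7%) and 5 in luminal cells (18.5%). The shares over all genes tested were 12.6% and 9.71%. Cdh3 (P-cadherin) was at 281, 217 and 326 CPM in basal cells against 1.89 and 0.123 CPM in luminal cells (log2 fold change 7.96, SE 0.73). The desmosomal cadherins Dsc3 and Dsg3 had no count in either luminal library and were at 20.0 to 28.7 CPM and 4.79 to 11.9 CPM in basal cells, at least 525-fold and 179-fold higher. Pkp2, a desmosome plaque protein, went the other way, at 0.0599, 0 and 1.08 CPM against 52.9 and 47.0 CPM (log2 fold change -7.06, SE 1.19, adjusted p = 0.00103), and Nectin4, a junctional adhesion molecule, at 3.19, 2.66 and 1.98 CPM against 126 and 127 CPM. A difference in Ctnnb1 (beta-catenin) was not detectable, at 834, 870 and 846 CPM against 764 and 697 CPM (log2 fold change 0.22, SE 0.18, adjusted p = 0.424). Per kb of exon Cdh3 stood at 68.7 CPM in basal and 0.252 in luminal cells, and Cdh1 at 20.9 and 58.5. The Cdh1 difference follows from the sort on its product and is given only as a description.

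Keratins split evenly, 7 of 18 higher in basal and 7 in luminal cells (38.9% each, against 12.6% and 9.71% of all genes tested). Krt14 was at 2614, 2853 and 1790 CPM in basal cells against 14.3 and 18.8 CPM, and Krt17 at 2072, 1594 and 1158 CPM against 11.2 and 31.8 CPM. On the luminal side Krt19 was at 82.2, 40.1 and 49.5 CPM against 5005 and 3089 CPM and Krt7 at 4.77, 2.66 and 4.64 CPM against 1645 and 662 CPM. Krt4 was nearly absent from basal cells, at 0.0200 to 0.0789 CPM, and reached 29.0 and 17.0 CPM in luminal cells. Krt6a was a luminal gene here at 340 and 125 CPM against 1.26 to 4.21 CPM, although keratin 6 genes are near-identical and their reads can be shared. Krt20, usually a keratin of simple epithelia, had no luminal count and was at 2.39, 5.60 and 1.82 CPM in basal cells, but its call (adjusted p = 0.0483) was lost without any 1 duct library (0.0714 to 0.152), and without 5 of the 6 TEB libraries (0.0501 to 0.0708).

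**Figure D3:**
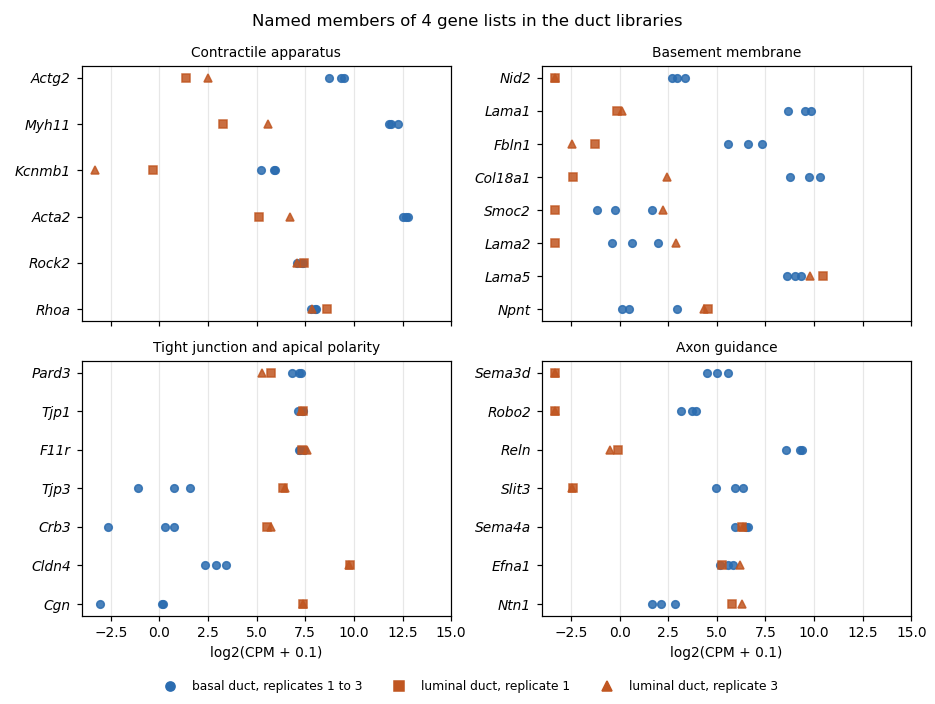
Levels, as log2(CPM + 0.1), of the members named by rule in 4 gene lists, in the 3 basal (circles) and 2 luminal (square, triangle) duct libraries. Basal libraries lie to the right of luminal ones for most contractile, basement membrane and guidance genes shown and for Pard3, and to the left for Lama5, Npnt, Ntn1, Tjp3, Crb3, Cldn4 and Cgn, while Rock2, Rhoa, Tjp1, F11r, Smoc2, Lama2, Sema4a and Efna1 were not called.

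The lists of transcription factors fixed for each layer did not divide with equal clarity. Among 27 basal factors, 12 were higher in basal (44.4%) and 2 in luminal cells (7.41%). Among 35 luminal factors 21 were higher in luminal (60%) and 5 in basal cells (14.3%). Over all genes tested, 12.6% were higher in basal and 9.71% in luminal cells. Irx4, a homeodomain factor, was at 225, 230 and 256 CPM in basal cells against 0.774 and 1.60 CPM (log2 fold change 7.68, SE 0.39, adjusted p = 5.43e-07). Nfatc4, a calcium-responsive factor, was at 17.5, 27.6 and 23.2 CPM against 0 and 0.164 CPM. Trps1, a GATA-type repressor listed as basal, was higher in luminal cells, at 92.0, 78.6 and 88.0 CPM against 647 and 474 CPM (log2 fold change -2.70, SE 0.21, adjusted p = 5.62e-06). Foxa1, which opens chromatin for the estrogen receptor, was at 0.219, 1.60 and 4.16 CPM in basal cells against 294 and 369 CPM. Tox3 had 1 basal count and was at 10.9 and 22.6 CPM in luminal cells. Sox10, listed as luminal, was higher in basal cells, at 215, 168 and 326 CPM against 44.6 and 73.1 CPM (log2 fold change 2.01, SE 0.37, adjusted p = 0.00185), and so was the glucocorticoid receptor Nr3c1, at 85.6, 91.5 and 95.9 CPM against 26.0 and 29.1 CPM. Runx1 was high in both, at 314, 305 and 240 CPM against 291 and 199 CPM (adjusted p = 0.566). Some related factors parted by layer, with Tbx2 3.20 log2 units higher in basal and Tbx3 1.21 log2 units higher in luminal cells, and Cited2 1.32 higher in basal and Cited1 7.29 higher in luminal cells. Of the 30 pairs of related genes listed, from any family, 10 parted in this way and 11 had both members higher in basal cells. Among the 11 were Trp63 with Trp73, Snai2 with Snai1 and Id4 with Id2. The calls of Trp73, Snai1 and Id2 were each lost without some single duct library (adjusted p 0.0570 to 0.133). In the rest a member was not called or not tested.

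The steroid receptors Pgr and Esr1 were higher in luminal cells and several IGF-binding proteins in basal cells. Of 30 genes of steroid and peptide hormone signalling, 13 were higher in basal (43.3%) and 6 in luminal cells (20%). The shares over all genes tested were 12.6% and 9.71%. Pgr, the progesterone receptor, was at 13.6, 19.4 and 19.2 CPM in basal cells against 583 and 236 CPM (log2 fold change -4.56, SE 0.43, adjusted p = 1.65e-05), and Esr1, the estrogen receptor, at 4.13, 0.658 and 3.16 CPM against 66.3 and 59.0 CPM. Stc2, a secreted glycoprotein, was at 2.11, 1.4998 and 6.18 CPM against 417 and 379 CPM. The IGF-binding protein Igfbp2 was at 532, 381 and 478 CPM against 1.46 and 0.699 CPM and Igfbp3 at 1754, 2065 and 1136 CPM against 3.55 and 16.5 CPM. Pthlh, which encodes PTHrP, was at 31.4, 19.8 and 34.6 CPM against 0.159 and 0 CPM. Tnfrsf11b (osteoprotegerin), the decoy receptor for RANKL, was at 56.1, 46.8 and 48.1 CPM against 0.637 and 0.0411 CPM. Tnfrsf11a (RANK), its signalling receptor, was likewise higher in basal cells, at 44.3, 73.1 and 36.3 CPM against 5.51 and 3.70 CPM (log2 fold change 3.47, SE 0.40). Insr, the insulin receptor, was at 53.6, 79.2 and 74.5 CPM against 59.6 and 90.3 CPM and was not called.

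The EGF family was shared out between the layers, 6 of 18 members higher in basal (33.3%) and 5 in luminal cells (27.8%). The shares over all genes tested were 12.6% and 9.71%. The ligands parted most. Nrg1 was at 57.9, 31.3 and 77.4 CPM in basal cells, with 3 counts in all in the luminal libraries, a ratio of 1272 with a counting interval of 435 to 6169. Btc (betacellulin) had 1 basal count and was at 62.5 and 7.40 CPM in luminal cells. Receptors lay opposite their ligands in 2 of these axes. Egfr, the receptor of Areg, was at 151, 150 and 159 CPM in basal cells against 9.86 and 16.0 CPM (log2 fold change 3.57, SE 0.35, adjusted p = 2.01e-05), and Erbb3, a receptor of neuregulins, at 8.48, 5.05 and 39.3 CPM in basal cells against 151 and 202 CPM (log2 fold change -3.33, SE 0.62, adjusted p = 0.00223). Adam17, the protease that sheds Areg, was at 59.1, 59.6 and 65.3 CPM against 52.5 and 49.2 CPM and was not called. Over the 30 ligand and receptor pairs listed, 4 had a basal ligand and a luminal receptor (Nrg1 with Erbb3, Jag1 and Jag2 with Notch3, and Kitl with Kit), 3 a luminal ligand and a basal receptor (Areg with Egfr, Wnt4 with Fzd7, and Ntn1 with Neo1), and 4 had both higher in basal cells (Slit2 with Robo1, Reln with Vldlr, Efnb1 with Ephb3, and Gas6 with Axl). No pair had both higher in luminal cells. In the remaining pairs at least 1 partner was not called. Only a basal ligand was called in 7, only a luminal ligand in 1, only a basal receptor in 6, and neither partner in 5. The ligand call of Gas6 was lost without any 1 basal library or luminal replicate 3 (adjusted p 0.0784 to 0.267), and without replicate 2 or 3 of either TEB group (0.0579 to 0.0673).

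Most Wnt pathway genes that differed were basal, 22 of 40 (55%) against 2 higher in luminal cells (5%), with a median log2 fold change of 2.35. The shares over all genes tested were 12.6% and 9.71%. The ligands were divided. Wnt6 was at 49.0, 39.9 and 68.8 CPM in basal cells against 0.205 and 0.0822 CPM, and Wnt10a at 29.4, 13.4 and 12.03 CPM with no luminal count, at least 416-fold higher. Wnt4, which acts downstream of progesterone, was at 1.24, 0.474 and 1.82 CPM in basal cells against 124 and 148 CPM, and Wnt7b at 2.09, 1.79 and 0.436 CPM against 51.3 and 50.1 CPM (log2 fold changes -6.84 and -5.13). The receptors Fzd7, Lgr5 and Lgr4 were higher in basal cells. Fzd7 was at 344, 343 and 486 CPM against 20.2 and 26.9 CPM (log2 fold change 4.06, SE 0.27, adjusted p = 1.88e-06), and the R-spondin receptors Lgr5 and Lgr4 at 57.9 to 136 CPM against 2.21 and 3.58 CPM and at 220 to 253 CPM against 21.7 and 30.1 CPM. Axin2, a feedback target often used to read Wnt signalling, was at 31.8, 25.8 and 23.9 CPM against 0.0228 and 0.164 CPM. Wif1, a secreted inhibitor, was also basal, at 127, 174 and 135 CPM against 0.0228 and 0.452 CPM. Procr, a surface marker used for basal stem-like cells, was uneven among the basal libraries, at 3.07, 32.6 and 4.21 CPM, with no luminal count. Basal replicate 2, where it was highest, also held the most endothelial markers (360 CPM), and their part in the value was not tested. The co-receptor Lrp5 and the receptor Ryk were not called.

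The Notch ligands Dll1, Jag2 and Jag1 were higher in basal cells and Notch3 in luminal cells, while the ligands Dll3 and Dll4 were not called (adjusted p = 0.305 and 0.605). Of 21 genes, 5 were higher in basal (23.8%) and 3 in luminal cells (14.3%). Over all genes tested the shares were 12.6% and 9.71%, so the luminal count was near that share. Dll1 was at 423, 456 and 300 CPM in basal cells against 0.842 and 3.82 CPM (log2 fold change 7.45, SE 0.71, adjusted p = 1.82e-05), and Jag2 at 445, 262 and 436 CPM against 5.62 and 3.41 CPM. Jag1 differed less, at 164, 224 and 159 CPM against 48.1 and 68.3 CPM. Notch3 was at 6.98, 17.7 and 6.03 CPM in basal cells against 181 and 166 CPM (log2 fold change -4.08, SE 0.46, adjusted p = 5.79e-05), while Notch1 was at 67.9, 31.3 and 52.2 CPM against 70.0 and 94.0 CPM and was not called. The target genes Hey1 and Hes1 were called higher in luminal cells (log2 fold changes -1.81 and -0.97), but without luminal replicate 3 the adjusted p of Hey1 was 0.162, and without luminal replicate 1 that of Hes1 was 0.317, with that of Hes1 also lost without basal replicate 1 or 3 (0.1004 and 0.116), or without basal TEB replicate 2 or any luminal TEB library (0.0569 to 0.0642).

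Axon guidance genes, which also steer epithelial and vascular growth, gave one of the most one-sided counts. Of 35 genes, 28 were higher in basal (80%) and 1 in luminal cells (2.86%), with a median of 2.83. The shares over all genes tested were 12.6% and 9.71%. Sema3d, a secreted semaphorin, was at 22.8, 32.1 and 47.8 CPM in basal cells with no luminal count, at least 778-fold higher. Slit3, a secreted ligand of Robo receptors, was at 81.7, 30.5 and 61.5 CPM against 0.0910 and 0.0822 CPM (log2 fold change 9.32, SE 1.10, adjusted p = 8.09e-05). Robo2 was at 13.2, 8.89 and 14.98 CPM with no luminal count, although its adjusted p was 0.0766 and 0.0680 without luminal replicate 1 or 3. Slit2 and its receptor Robo1 were both higher in basal cells, at 33.3, 54.0 and 38.9 CPM against 0.615 and 1.60 CPM and at 60.2, 48.6 and 89.8 CPM against 22.9 and 29.6 CPM. The exception was Ntn1 (netrin 1), at 3.03, 4.21 and 7.03 CPM in basal cells against 54.4 and 79.5 CPM (log2 fold change -3.81, SE 0.44, adjusted p = 6.64e-05). Its receptor Neo1 was at 138, 107 and 148 CPM in basal cells against 53.3 and 47.2 CPM.

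Of 30 genes of mucosal defence and antigen presentation, 9 were higher in luminal cells (30% against 9.71% of all genes tested) and 4 in basal cells (13.3% against 12.6%). Cxcl15, a chemokine-like protein of mucosal epithelium, was at 0.0399, 0.553 and 0 CPM in basal cells against 366 and 97.0 CPM, and Ltf (lactoferrin) at 0.0200, 0.0789 and 2.10 CPM against 139 and 94.2 CPM. Wfdc2 was at 3.63, 6.53 and 5.77 CPM against 723 and 634 CPM. Its fellow protease inhibitor Slpi was basal, at 222, 171 and 136 CPM against 2.19 and 3.99 CPM (log2 fold change 5.85, SE 0.79, adjusted p = 0.000219). Of 22 milk and secretory genes, 7 were higher in luminal cells (31.8%) and 2 in basal cells (9.09%), so that on the basal side both lists were near the share of all genes. Aqp5, a water channel, was at 1.56, 0 and 1.82 CPM against 840 and 434 CPM, and Btn1a1 (butyrophilin) at 1.12, 0.210 and 0.154 CPM against 31.0 and 34.4 CPM. Mfge8, a milk fat globule protein, was higher in basal cells, at 1634, 1350 and 1650 CPM against 406 and 455 CPM (log2 fold change 1.84, SE 0.25, adjusted p = 0.000228).

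Proteases and inhibitors were also divided by layer, 12 of 31 higher in basal (38.7%) and 6 in luminal cells (19.4%). The shares over all genes tested were 12.6% and 9.71%. Several matrix proteases were higher in basal cells, with Adamts18 at 321, 216 and 414 CPM against 0.410 and 4.48 CPM, Mmp2 at 297, 358 and 338 CPM against 1.00 and 17.6 CPM, and Plau (urokinase) at 172, 217 and 256 CPM against 5.24 and 7.24 CPM (log2 fold change 5.11, SE 0.31, adjusted p = 1.11e-06). Among those higher in luminal cells was the membrane-bound serine protease Tmprss2, at 3.01, 1.68 and 7.003 CPM in basal cells against 333 and 575 CPM and Spint1, an inhibitor of such proteases, at 10.7, 4.26 and 16.0 CPM against 167 and 257 CPM. Mmp2 is also made by fibroblasts, whose summed markers were higher in basal than in luminal libraries, as was Dcn, the 1 fibroblast marker called, at 318, 399 and 205 CPM against 2.89 and 24.6 CPM. The collagens Col1a1 and Col3a1 were not called and reached 43.5 and 123 CPM in luminal replicate 3 against 0.910 and 0.0455 CPM in replicate 1. Without luminal replicate 3, 5 of 10 fibroblast markers were called higher in basal cells. The part of fibroblast RNA in the basal calls was not tested.

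Of 30 proliferation genes 1, Cenpe, was called, higher in basal cells (3.33%, against 12.6% of all genes tested). Cenpe was at 86.6, 21.1 and 82.3 CPM against 18.5 and 16.4 CPM. Its adjusted p was 0.0611 to 0.111 without basal replicate 1 or 3 or either luminal library. Mki67, the standard proliferation marker, was at 311, 117 and 338 CPM in basal cells against 159 and 227 CPM, and was not called (log2 fold change 0.40, SE 0.38, adjusted p = 0.481). Basal replicate 2 was far below the other basal libraries in both genes, and without it 14 of the 30 were called higher in basal cells. Of 24 genes of the dissociation stress response, 9 were higher in basal cells (37.5% against 12.6% of all genes tested) and 3 in luminal cells (12.5%, near the 9.71% of all genes). Egr2 was at 672, 810 and 773 CPM in basal cells against 39.1 and 52.0 CPM (log2 fold change 4.05, SE 0.31, adjusted p = 4.33e-06). Atf3, a stress-induced factor, was higher in luminal cells, at 855, 1063 and 506 CPM against 4463 and 2711 CPM (log2 fold change -2.15, SE 0.32, adjusted p = 0.000437), and Fos, an immediate early gene, was at 3908, 5680 and 5146 CPM against 3793 and 3657 CPM and was not called. Among markers of other cells the calls were 1 of 9 immune (Cd68) and 1 of 9 adipocyte genes (Plin4), both 11.1% and near the 12.6% of all genes higher in basal cells, and 0 of 10 endothelial and 0 of 4 erythroid genes in edgeR's test, where 2 endothelial markers higher in basal and 1 erythroid marker higher in luminal cells had an unadjusted p under 0.05, and DESeq2 called 3 endothelial markers higher in basal and 1 erythroid marker higher in luminal cells. The calls of Cd68 and Plin4 were lost without luminal replicate 3 (adjusted p = 0.0639 and 0.0750), and that of Plin4 also without luminal replicate 1 or basal replicate 3 (0.0847 and 0.0513). Among the 10 Schwann and nerve markers 4 were higher in basal cells, among them Ngfr, at 9.46, 3.34 and 26.0 CPM with no luminal count, and Pmp22, at 108, 165 and 106 CPM against 2.89 and 0.781 CPM, while Mbp, a myelin gene, was not called. Mbp was at 2.85, 9.81 and 3.16 CPM in basal cells against 29.7 and 45.9 CPM in luminal cells.

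**Figure D4:**
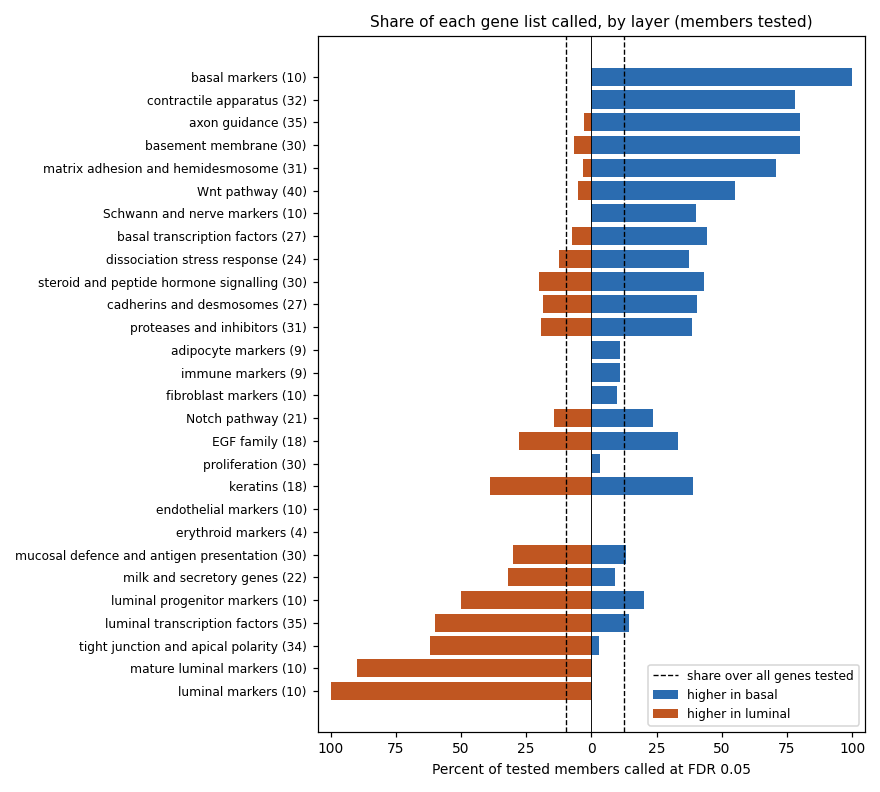
Percent of tested members called higher in basal (to the right) or in luminal cells (to the left) at an FDR of 0.05 for each of the 28 gene lists, with the number of members tested in brackets. The dashed lines are the shares over all 17370 genes tested (12.6% and 9.71%), and most lists lie above one or both. Apart from the epithelial markers, the longest bars are those of axon guidance and basement membrane (80% each) on the basal side and of tight junction genes (61.8%) on the luminal side.

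The layer difference in ducts was then set against that in TEBs, where the same contrast rests on 6 other libraries. Mitochondrial genes took 37.5%, 4.74% and 17.8% of counts in basal TEB replicates 1, 2 and 3. In the luminal TEB libraries they took 4.34% to 4.77%. Of the genes higher in basal cells in ducts, 1523 were also higher in basal cells in TEBs (69.5% of the duct calls and 66.3% of the TEB calls), and 1155 were higher in luminal cells in both (68.5% and 56.2%). In 14 genes the call went to basal cells in ducts and to luminal cells in TEBs, among them the hemidesmosome genes Dst and Itgb4, named after their values were seen. Being called in one and not in the other does not show a difference, and a direct test of the difference (the interaction term) called 77 genes (0.443%), 63 with a difference more towards basal cells in ducts (0.363%) and 14 less (0.0806%). This count was 7 without basal duct replicate 1 and 753 without luminal duct replicate 1, the extremes when single libraries were left out.

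Among well expressed genes the 6 strongest interactions towards basal cells in ducts were in Prss23, Has2, S100a6, Lgals9, Tgfbr2 and Ehd2. Has2, a hyaluronan synthase, was at 65.6, 72.0 and 83.8 CPM in basal and at 3.98 and 3.33 CPM in luminal duct cells, while in TEBs it was at 42.1, 48.0 and 78.1 CPM in basal and at 30.4, 40.7 and 41.8 CPM in luminal cells. Prss23, a secreted serine protease, was at 203, 226 and 181 CPM in basal and at 26.9 and 30.4 CPM in luminal duct cells, and lay between 39.0 and 57.2 CPM in all 6 TEB libraries. In both genes the layers overlapped or nearly so in TEBs and were apart in ducts. S100a6, a calcium-binding protein, was higher in luminal cells in both, but by less in ducts, at 287, 292 and 187 CPM in basal against 863 and 912 CPM in luminal cells, compared with 29.5 to 49.96 CPM against 1332 to 1368 CPM in TEBs. Towards luminal cells the 6 were Porcn, Irx4, Mdk, Lgals7, Cst3 and Adamts9. Porcn, the acyltransferase that readies Wnt ligands for secretion, was at 26.9, 37.5 and 33.1 CPM in basal and at 24.5 and 38.0 CPM in luminal duct cells, whereas in TEBs it was at 47.0 to 87.1 CPM in basal and at 4.76 to 5.29 CPM in luminal cells.

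**Figure D5:**
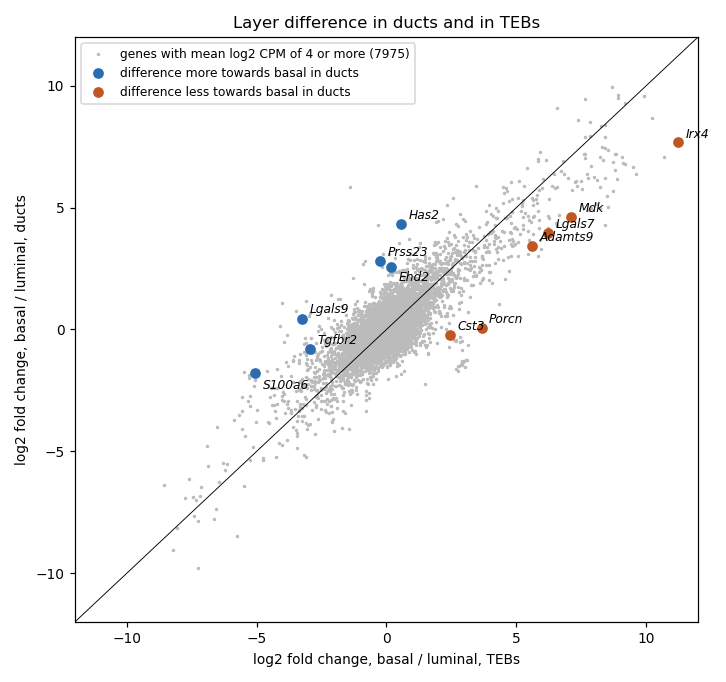
Log2 fold change of basal over luminal cells in ducts (y axis) against that in TEBs (x axis) for the 7975 genes whose mean log2 CPM was 4 or more, with the line of equal difference. The 12 labelled genes have the smallest interaction p in each direction, and Prss23, Has2 and Ehd2 lie near 0 in TEBs but between 2.56 and 4.33 in ducts.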

How the data were processed

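RNA was measured by paired-end sequencing (80-base reads) of sorted basal and luminal cells. Per the paper's methods the authors used Rsubread, with its own RefSeq annotation, to align to mm10 and to count by Entrez gene, and the submitters' processing notes name featureCounts. The deposited table holds raw counts, with no normalization, for 27179 genes in 11 libraries. Counting by strand is not given in the sources used here, so overlapping and near-identical genes are uncertain.

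The filterByExpr function (10 counts at least, total at least 15) left 17370 genes, which were scaled by TMM and fitted in edgeR 4.0.16 (R 4.3.3) as 1 quasi-likelihood model over 4 groups. The contrast was basal minus luminal in ducts, and the interaction compared it with TEBs. Values were adjusted by Benjamini-Hochberg over all genes (FDR 0.05). Standard errors were derived from the fold change and the F statistic. A count of 0 was given a limit of 3 counts over the group, and counting intervals cover counting error only. Alternatives used DESeq2 1.42.0 and limma 3.58.1, other scalings, filters and thresholds, and left out libraries.

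Members, lists and tests were chosen with earlier results of these data known. Named genes were the markers, the 12 most different well expressed genes in each direction, the 4 most different called members of each list in each direction with the 2 highest not called, listed pairs, and the 6 strongest interactions in each direction. The 12 were taken from called genes without overlap between the layers and without a predicted name. Any other gene was named after its values were seen. Replicates were separate pools of mice. Same-numbered libraries were not treated as pairs, since the labels do not say whether a number stands for the same pool of mice. Deviations of same-numbered libraries from their group means correlated over 0.1 in 4 of 15 pairs (median 0.061). For libraries with different numbers this was 2 of 30 pairs (median -0.027). Deviations within a group cancel out, so the 2 luminal duct libraries mirror each other, and this check cannot decide the pairing. Counts from a fit with a replicate block are given below.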

Additional observations from a re-analysis of the deposited data

Results flagged for a closer look

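For 12 genes the layer difference in ducts differed from that in TEBs by the interaction term of edgeR's quasi-likelihood test. In each case the log2 fold change of basal over luminal cells is given for ducts, then for TEBs, then the difference.

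Toward basal cells in ducts, Prss23 had 2.83 and -0.26, a difference of 3.09 (SE 0.27, adjusted p = 0.00178). Has2 had 4.33 and 0.58, a difference of 3.75 (SE 0.40, adjusted p = 0.00401). S100a6 had -1.80 and -5.07, a difference of 3.27 (SE 0.36, adjusted p = 0.00401). Lgals9, a galectin, had 0.44 and -3.27, a difference of 3.71 (adjusted p = 0.00401), with basal libraries at 51.6 to 81.5 CPM in ducts and 8.37 to 13.9 CPM in TEBs. Tgfbr2, a TGF-beta receptor, had -0.80 and -2.95, a difference of 2.15 (adjusted p = 0.00563), and Ehd2, a membrane-trafficking ATPase, had 2.56 and 0.19, a difference of 2.37 (adjusted p = 0.0126).

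In the other direction, Porcn had 0.06 and 3.66, a difference of -3.60 (SE 0.41, adjusted p = 0.00479). Irx4 had 7.68 and 11.23, a difference of -3.54 (adjusted p = 0.0126). Its luminal levels were 0.774 and 1.60 CPM in ducts and 0.0448 to 0.114 CPM in TEBs. Those TEB values lay near the level of 3 counts in these libraries (0.0572 to 0.0673 CPM). The basal markers summed to 102 and 271 CPM in luminal duct replicates 1 and 3. In luminal TEB replicates 1, 2 and 3 they summed to 29.95, 27.2 and 16.5 CPM. The part of basal RNA in the Irx4 difference was not tested. Mdk, the growth factor midkine, had 4.64 and 7.13, a difference of -2.49 (adjusted p = 0.0145). Lgals7 had 3.98 and 6.24, a difference of -2.26 (adjusted p = 0.0253). Cst3, cystatin C, had -0.21 and 2.45, a difference of -2.66 (adjusted p = 0.0253), and Adamts9, a matrix protease, had 3.44 and 5.61, a difference of -2.17 (adjusted p = 0.0273).

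The calls of 6 of the 12 were lost when 1 library was left out. Without basal duct replicate 1 the adjusted p was 0.0518 for Ehd2 and Irx4, 0.0584 for Mdk, 0.0734 for Lgals7, 0.0819 for Cst3 and 0.0942 for Adamts9. Each of these 6 calls was also lost without luminal TEB replicate 3 (0.0526 for Ehd2 and Mdk, 0.0630 for Irx4 and Cst3, 0.0797 for Lgals7 and Adamts9). With the replicate block the calls of Lgals7 and Adamts9 were lost (adjusted p = 0.0714 and 0.0584). Under limma voom those of Has2 (0.0614), Irx4 (0.270), Mdk (0.249), Lgals7 (0.0964) and Adamts9 (0.105) were lost. With scaling by library size only, those of Tgfbr2 (0.0591), Ehd2 (0.0696), Irx4 (0.0984), Mdk and Cst3 (0.117 each), Lgals7 (0.161) and Adamts9 (0.254) were lost. Prss23, S100a6, Lgals9 and Porcn lost the call under none of the 24 alternatives run.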

How the results depend on the processing

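Of the 3878 calls, basal made up 56.5%, and 54.9% to 62.8% over the alternatives run. The count was 2318 (1381 higher in basal and 937 in luminal cells) at an FDR of 0.01, 1981 (1245 and 736) for a change over 2-fold, and 2286 (1317 and 969) in duct replicates 1 and 3 alone with a replicate block. Luminal calls were 1049 with scaling by library size only, where the all-gene median rose from 0.08 to 0.19 log2 units, and 1120 in the duct libraries alone. DESeq2 gave 5122 calls, limma voom 4970 and the likelihood ratio test 5004. With 1 library left out the count was 3072 to 4785, with 1792 to 2646 higher in basal and 1280 to 2139 in luminal cells. Without basal duct replicate 2 and luminal duct replicate 3, chosen after seeing the data, it was 3174. The replicate block gave 3293 duct calls, 3190 of them shared with the fit without it.

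The 77 interaction calls depended far more on the processing. They were 15 with scaling by library size only, 141 with no filter, 712 by DESeq2, 629 by the likelihood ratio test, 46 with the replicate block and 7 at an FDR of 0.01. Without the 2 libraries of highest mitochondrial share, luminal duct replicate 3 and basal TEB replicate 1, they were 198. With 1 library left out they ranged from 7 (basal duct replicate 1) to 753 (luminal duct replicate 1), with 352 without basal TEB replicate 2, 119 without luminal duct replicate 3, 51 without basal duct replicate 2, 33 without luminal TEB replicate 2, 24 without basal TEB replicate 3, 14 without luminal TEB replicate 1 and 9 without luminal TEB replicate 3. The cause was not tested.

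Of the 191 named genes called in ducts, 25 lost the call without 1 duct library. Cd79a, an immune marker not called with all libraries (log2 fold change -0.70), was at 5.72 (adjusted p = 0.0279) without luminal duct replicate 3 and at 5.72 (adjusted p = 0.0119) without the 2 libraries of highest mitochondrial share. With 1 library left out it ranged from -1.69 (adjusted p = 0.195, without luminal duct replicate 1) to 5.72. Precision in luminal duct cells is limited by 2 libraries, of which the smaller held 29522747 counts.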
